A study of Homo sapiens with 46 samples.

Results

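RNA levels of 10 genes of the ATF4 stress response were followed in DLD-1, a long-established cell line from a human colorectal adenocarcinoma. The genes were chosen by name: ATF4, DDIT3, ATF3, ASNS, CHAC1, TRIB3, SESN2, PSAT1, PHGDH and DDIT4. They and the gene lists used below were chosen with earlier results of these data known. Counts of called genes set beside the share of all genes are therefore descriptions. All 10 were found by symbol among the 62756 genes read, and all 10 passed the low-count filter that left 21484 genes to test. The cells were the untagged parental line or lines in which an auxin-inducible degron, a tag that sends a protein to the proteasome once the plant hormone auxin is added, sits at the N-terminus of an endogenous lamin. The tagged lamin was Lamin A/C (line LAC), Lamin B1 (line LB1) or Lamin B2 (line LB2). Lamins are the filament proteins beneath the inner nuclear membrane. Every line was kept in DMEM with fetal bovine serum and received 1 mM auxin for 0, 16 or 96 h. The 46 libraries form 12 groups of 4 wells each, except LB1 at 0 h and LB2 at 96 h, which have 3. A replicate is 1 well, so p-values measure the spread between wells. The labels do not say whether wells at 0 h received DMSO, the solvent of auxin, or how many clones each tagged line comes from. A group grown for 96 h without auxin is not among the samples, so auxin and time in culture cannot be told apart within a line. The parental line received the same auxin, and the difference between a tagged line's change and the parental change is therefore given as well.

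ATF4 is a transcription factor of the integrated stress response. Kinases that sense lack of amino acids, unfolded protein in the endoplasmic reticulum, viral RNA or lack of heme phosphorylate the translation factor eIF2alpha, which slows most protein synthesis and at the same time lets ribosomes reach the ATF4 reading frame. ATF4 protein then pairs with C/EBP family factors on composite elements and raises genes for amino acid synthesis, amino acid import, tRNA charging and redox defence. Because ATF4 itself is controlled largely at translation, the RNA levels given here do not report ATF4 protein. Among the members, DDIT3 (CHOP) and ATF3 are further transcription factors of the response, TRIB3 is a pseudokinase that feeds back on ATF4, and CHAC1 degrades glutathione. SESN2 and DDIT4 (REDD1) lower the activity of mTORC1, a kinase complex that promotes growth. ASNS makes asparagine, while PHGDH and PSAT1 carry out the opening steps of serine synthesis.

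The core of the C/EBP-ATF composite element, TGATGNAA on either strand, was searched in the 250 bases before each start in the RefSeq promoter table (GRCh38.p14). It was found for 3 of the 10 members, in 3 of their 16 windows, and in 3.14% of all 35116 windows. The match began 191 bases before the start for ATF3, 68 for ASNS and 209 for CHAC1, where it lies on the opposite strand. The palindromic cAMP response element TGACGTCA was in 0 of the members' windows and in 1.65% of all windows. A match describes these letters only and is not a measured binding site. The stretches around the 3 matches are shown because they hold the letters of the element that ATF4 is known to bind. Capitals mark the match, and each sequence reads 5′ to 3′ on the strand of its gene. For ATF3 the stretch is the 177 bases at chr1:212565157-212565333 (plus strand), outside the exons of the count table. For ASNS (chr7:97872458-97872487, minus strand) and CHAC1 (chr15:40953251-40953280, plus strand) the match lies in an exon of another transcript of the gene, and 30 bases are shown.
ATF3: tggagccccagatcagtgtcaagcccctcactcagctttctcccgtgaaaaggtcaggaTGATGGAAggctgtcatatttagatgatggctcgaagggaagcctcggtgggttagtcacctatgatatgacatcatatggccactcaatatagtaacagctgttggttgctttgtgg
ASNS: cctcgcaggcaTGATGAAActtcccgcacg
CHAC1: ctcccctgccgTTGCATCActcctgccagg

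Libraries held from 479446 to 37309421 counts, with a median of 11533218. Of the 6 libraries under 5000000 counts, 5 belong to 0 h groups, so depth moves with time. Some libraries also stand apart in how their counts follow the base composition of genes. Spearman's rho, over 8547 genes, between a library's log2 deviation from the mean of all libraries and GC content ran from -0.568 to 0.717, and was highest in LAC 0 h replicate 1 (3318819 counts) and LB2 0 h replicate 1 (1894447 counts). Results that rest on them are given without them, and the members' changes are also given after each library's trend with GC content and gene length was removed. Of 9 markers of colorectal epithelium, EPCAM, CDH1, KRT8, KRT18, KRT20 and CDX2 were present in every library (lowest 20.2 CPM, for KRT20), VIL1 and LGALS4 were low (medians 1.21 and 0.319 CPM), and CDX1 was at 0 in 40 libraries. The 12 markers of fibroblasts, endothelium and leukocytes summed to between 2.09 and 22.6 CPM in every library, and COL1A2 and DCN were at 0 in all 46.

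Values are CPM, counts scaled to a common library total after TMM normalization, which sets aside the genes that differ most when libraries are made comparable. The levels of the members differed widely. Per kilobase of exon, the medians over all libraries were 206.0 CPM for PSAT1, 168.1 for ATF4, 62.1 for TRIB3, 61.9 for DDIT4, 30.2 for PHGDH, 22.3 for CHAC1, 11.7 for SESN2, 5.65 for DDIT3, 4.33 for ATF3 and 1.16 for ASNS. The 2 genes with the fewest reads were DDIT3, with between 2 and 223 per library, and ASNS, with between 6 and 201. Both are also uncertain in their counting. DDIT3 (chromosome 12, 57516588 to 57521737, minus strand) shares 39.6% of its exon bases with other genes, of which 31.6% lie on the opposite strand in MARS1 and MBD6, and MARS1 has a median of 345.0 CPM. ASNS (chromosome 7, 97851677 to 97872542, minus strand) shares 49.3% of its exon bases with a same-strand gene without symbol. The strand setting and the handling of shared reads are not given in the sources used here, so the levels of DDIT3 and ASNS may hold or lose reads of these neighbours. The other 8 members share no exon bases with another gene of the table.

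**Figure D1:**
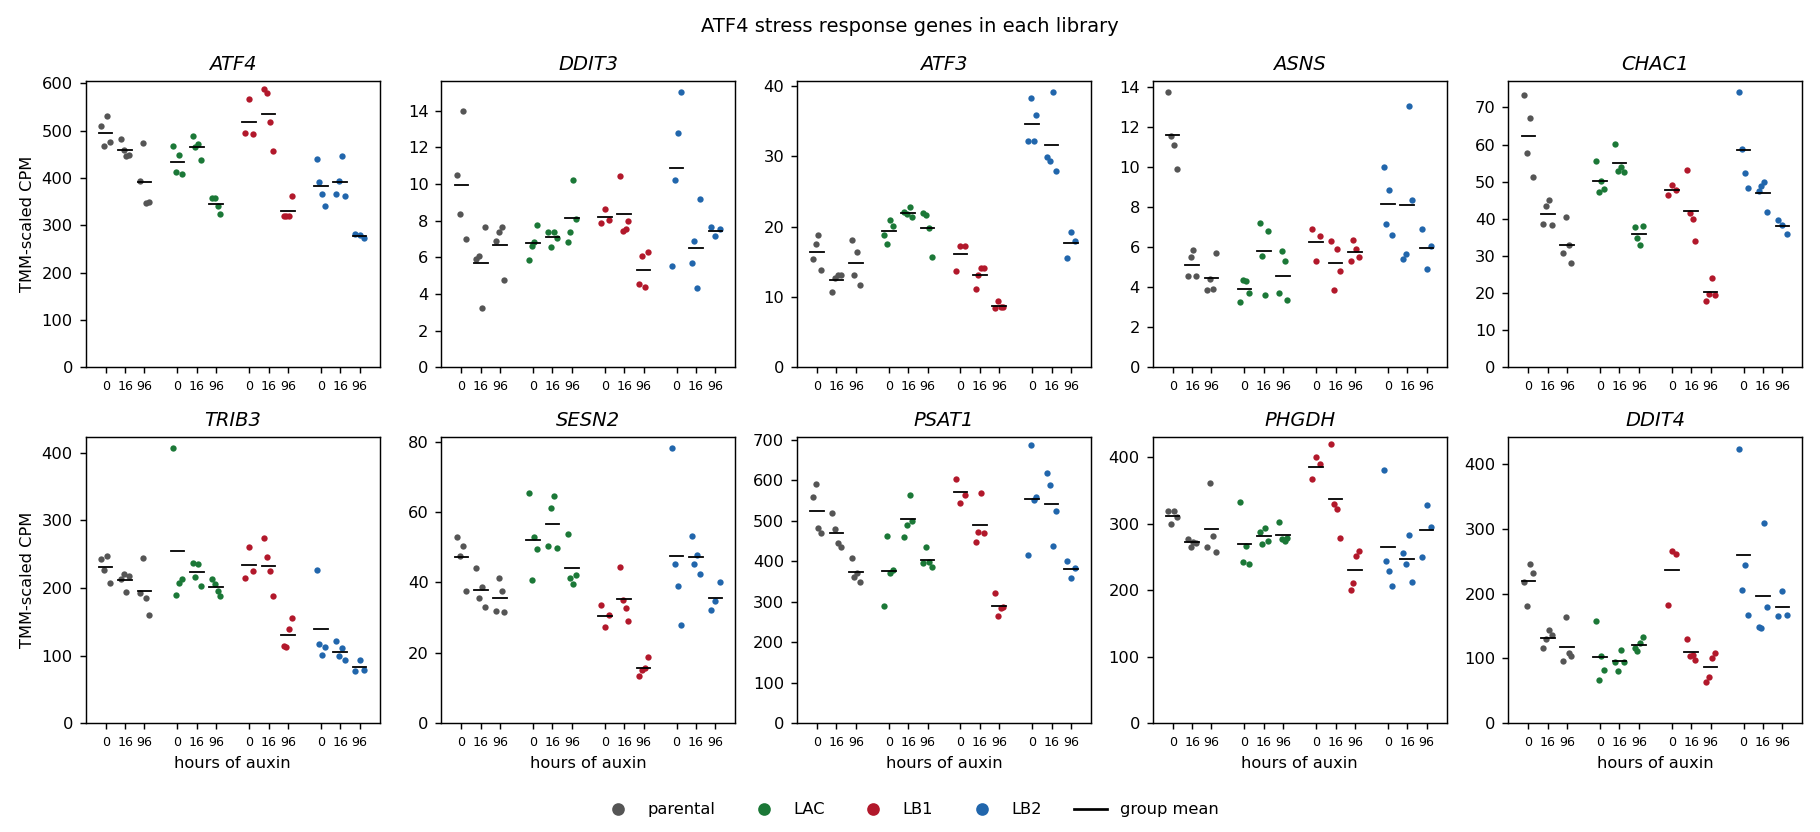
TMM-scaled CPM (y axis, linear from 0) of each of the 10 genes in every library, by line (colour) and hours of auxin (x axis); points are wells and black bars are group means. In LB1 (red) the 96 h wells of ATF4, ATF3, CHAC1, TRIB3, SESN2, PSAT1, PHGDH and DDIT4 all lie below the 0 h wells, and in LAC (green) single wells such as TRIB3 at 407.2 CPM stand far from their group.

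In LB1 after 96 h of auxin, 8 of the 10 members were called lower than at 0 h (edgeR quasi-likelihood test, Benjamini-Hochberg adjusted p under 0.05 over all genes tested) and none higher, where 3.17% of all tested genes were called and 2.12% were called lower. Wells of 0 and 96 h did not overlap for 9 members, against 18.7% of all tested genes (8.8% lower). The median log2 fold change was -0.84 for the members and 0.04 for all tested genes. All 8 calls were kept in each of 16 alternative settings and left-out wells. The markers of other cell types summed to between 11.7 and 14.5 CPM in LB1 at 0 h and to between 6.96 and 10.6 CPM at 96 h, and the part of this shift in the result was not tested. In bulk RNA, fewer cells expressing a gene and less RNA per cell cannot be told apart. The parental line had 5 members called lower at 96 h (7.78% of all genes called, 3.84% lower), LB2 had 5 (3.55%, 1.6% lower) and LAC had 2 (15.4%, 8.64% lower), and no member was called higher in any of these lines. With limma voom the parental count was also 8 (7.09% of all genes called lower), as in LB1 (4.72%). The LB2 count was 3 without 96 h replicate 2 and 1 without 96 h replicate 3, and the parental count was 3 without 0 h replicate 1 or 2. The plot of fold changes sets the 4 lines side by side.

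**Figure D2:**
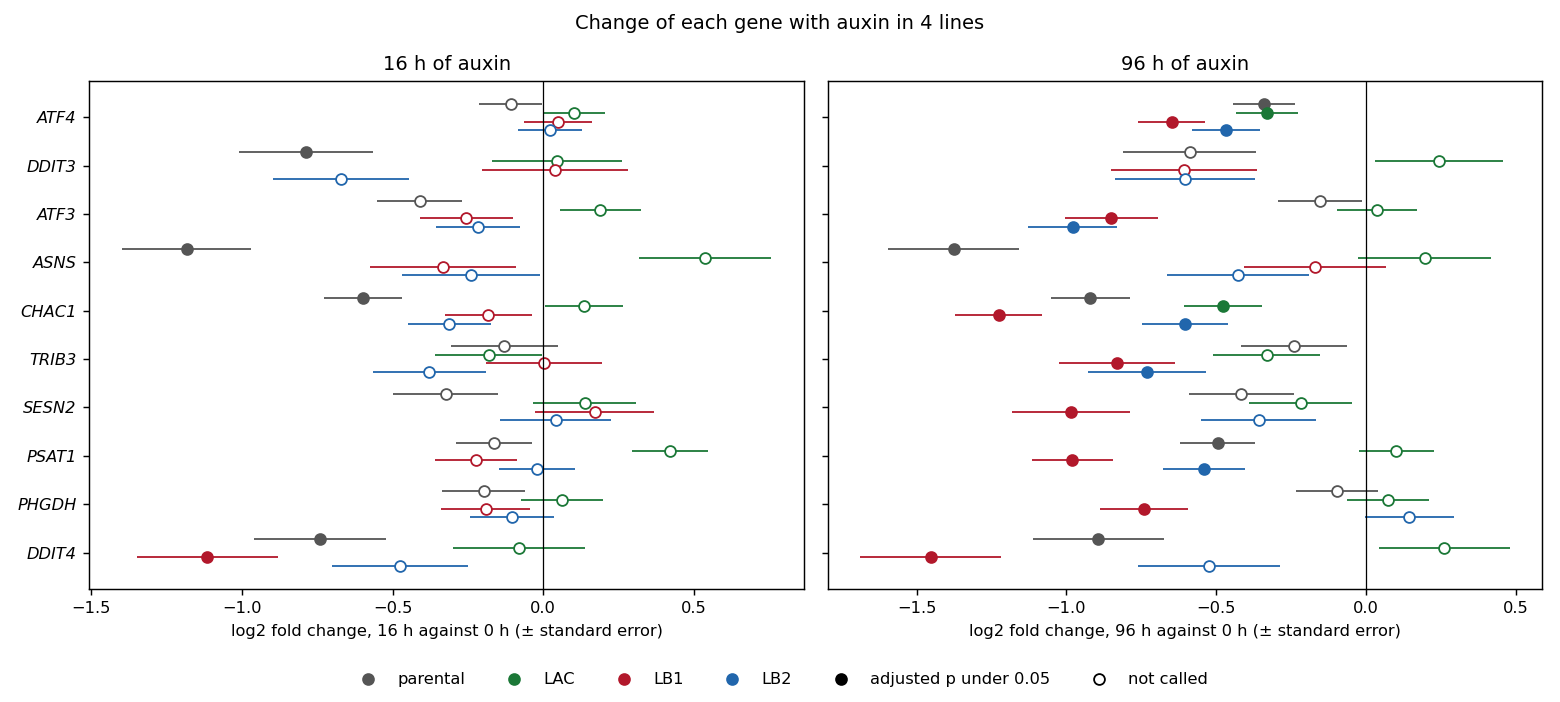
Log2 fold change against 0 h of the same line (x axis, ± standard error) for each gene (y axis) at 16 h (left) and 96 h (right); filled points passed an adjusted p under 0.05. At 96 h the LB1 points (red) are filled for 8 genes, between -0.65 for ATF4 and -1.45 for DDIT4, while the parental line (grey) has the lowest value of all lines for ASNS, -1.38.

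The transcription factors come first. ATF4 lies on chromosome 22 (39519695 to 39522683, plus strand). In LB1 it stood at 495.7, 567.6 and 492.4 CPM at 0 h, at 589.2, 579.0, 517.9 and 457.7 CPM at 16 h, and at 320.3, 319.6, 319.7 and 361.6 CPM at 96 h. The 96 h wells are therefore all below every earlier well of the line, and 3 of the 4 are nearly the same. The change from 0 to 96 h was -0.65 on the log2 scale (SE 0.112, adjusted p = 0.0001199), a level 1.57-fold lower. ATF4 also fell at 96 h in LB2, from 384.2 ± 42.4 CPM (SD, n = 4) to 277.6 ± 4.68 (n = 3), a log2 change of -0.47 (edgeR adjusted p = 0.01014). In the parental line it went from 495.8 ± 30.2 to 391.3 ± 59.5 CPM (n = 4 each), a log2 change of -0.34 (edgeR adjusted p = 0.03296), and in LAC from 434.2 ± 28.7 to 345.0 ± 15.4 CPM (n = 4 each), a log2 change of -0.33 (edgeR adjusted p = 0.02356). The parental groups overlapped, because replicate 2 at 96 h had 474.3 CPM. The parental call was lost when any 1 of 7 of the 8 wells was left out, all but 96 h replicate 2. The LAC call was lost without 0 h replicate 1 or 3 or 96 h replicate 3 or 4, and once the trend with GC and length was taken out, where the log2 change was -0.07. The LB2 call was lost without 96 h replicate 2 or 3 (-0.45 in both cases). At 16 h ATF4 was called in none of the 4 lines.

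Over the 12 groups the mean of ATF4 was highest in LB1 at 16 h (536.0 ± 60.9 CPM, n = 4), followed by LB1 at 0 h (518.6 ± 42.5, n = 3), the parental line at 0 h (495.8 ± 30.2, n = 4) and LAC at 16 h (465.8 ± 20.2, n = 4). These neighbours differ by less than their spread. The lowest means were those of LAC at 96 h (345.0 ± 15.4, n = 4), LB1 at 96 h (330.3 ± 20.9, n = 4) and LB2 at 96 h (277.6 ± 4.68, n = 3). The ratio of the highest to the lowest group mean was 1.93 for ATF4, against 3.96 for ATF3.

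ATF3 (chromosome 1, 212565334 to 212620777, plus strand) is induced by many stresses besides those that act through ATF4. In LB1 it measured 13.7, 17.3 and 17.2 CPM at 0 h and 8.36, 9.41, 8.58 and 8.57 CPM at 96 h, with no overlap. The log2 change was -0.85 (SE 0.156, adjusted p = 0.000326). LB2 started much higher, at 32.2, 38.3, 32.1 and 35.9 CPM at 0 h, and came down to 15.6, 19.3 and 18.0 CPM at 96 h. That is a log2 change of -0.98 (SE 0.148, adjusted p = 1.638e-05) to a level near that of the parental line at 0 h, which was 16.4 ± 2.24 CPM (SD, n = 4). ATF3 was called at neither time in the parental line or in LAC. LAC stayed between 15.6 and 22.7 CPM in all 12 of its wells.

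DDIT3 encodes CHOP, a factor tied to cell death under long stress. Its LB1 wells held 7.88, 8.63 and 8.01 CPM at 0 h and 4.56, 6.07, 4.39 and 6.28 CPM at 96 h, which do not overlap, but the log2 change of -0.61 (SE 0.243) missed the threshold (edgeR adjusted p = 0.1945). In the parental line DDIT3 was called lower at 16 h (log2 change -0.79, edgeR adjusted p = 0.01976), from 9.95 ± 3.05 to 5.71 ± 1.83 CPM (n = 4 each). Those groups overlap, and the call was lost without parental 0 h replicate 1 or 3 or without 16 h replicate 3.

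The feedback and effector genes CHAC1, TRIB3, SESN2 and DDIT4 had their lowest estimates at 96 h in LB1. None of these genes passed the edgeR test of the LB1 minus the parental response. CHAC1 (chromosome 15, 40952962 to 40956512, plus strand) went from 46.5, 49.1 and 47.7 CPM at 0 h to 17.9, 19.6, 24.1 and 19.5 CPM at 96 h. Its level was 2.34-fold lower (log2 change -1.23, SE 0.145, adjusted p = 4.932e-08), and the 0 h wells are tightly grouped. CHAC1 was the only member called lower at 96 h in all 4 lines besides ATF4. The parental line fell from 62.4 ± 9.83 to 33.1 ± 5.35 CPM (n = 4 each; log2 change -0.92, edgeR adjusted p = 6.16e-06). LB2 fell from 58.5 ± 11.4 (n = 4) to 38.0 ± 1.83 CPM (n = 3; log2 change -0.60, edgeR adjusted p = 0.007919), and LAC from 50.3 ± 3.81 to 35.9 ± 2.46 CPM (n = 4 each; log2 change -0.48, edgeR adjusted p = 0.00857). Once the trend with GC and length was taken out, the changes in LAC and LB2 were -0.07 and -0.40 and neither was called, while LB1 and the parental line were called at -1.15 and -0.91. The LB2 call was also lost without 96 h replicate 3 (-0.56).

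TRIB3 (chromosome 20, 362835 to 397559, plus strand) measured 214.8, 260.2 and 225.9 CPM in LB1 at 0 h, 273.6, 246.1, 225.5 and 187.9 CPM at 16 h, and 114.3, 113.1, 139.9 and 156.0 CPM at 96 h. The 96 h wells lie below all others of the line (log2 change against 0 h -0.83, SE 0.192, adjusted p = 0.005878). In LB2 the TRIB3 level was low from the start, at 117.7, 100.3 and 112.9 CPM in 3 of the 0 h wells, with 227.3 CPM in the shallow replicate 1. Its called fall at 96 h, to 76.4, 92.7 and 78.1 CPM (log2 change -0.73, adjusted p = 0.02459), was -0.41 and not called without that replicate, and was also lost without 96 h replicate 1 or 3 (-0.66 and -0.69). The LAC 0 h group likewise has 1 well at 407.2 CPM beside 190.3, 207.3 and 212.8 CPM, and TRIB3 was not called in LAC or in the parental line at either time.

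SESN2 (chromosome 1, 28259518 to 28282491, plus strand) was called at 96 h in LB1 but not at either time in the other 3 lines. Its LB1 wells had 33.7, 27.2 and 30.7 CPM at 0 h and 44.3, 35.0, 32.7 and 29.1 CPM at 16 h. At 96 h they had 13.5, 15.1, 15.7 and 18.8 CPM, a level 1.98-fold lower than at 0 h (log2 change -0.98, SE 0.197, adjusted p = 0.001122). This call in a single line does not show that the lines differ: the difference between the LB1 and the parental change of SESN2 was not called.

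DDIT4 (chromosome 10, 72273919 to 72276036, plus strand; an antisense gene, DDIT4-AS1, lies within its span) showed an early fall. In LB1 it dropped from 182.9, 265.5 and 261.8 CPM at 0 h to 130.1, 103.2, 105.0 and 98.0 CPM at 16 h, when it was the only member called in that line (1.5% of all genes called, 0.517% lower; log2 change -1.11, SE 0.235, adjusted p = 0.007396). The call at 16 h was lost without LB1 0 h replicate 3 (log2 change -1.02). At 96 h the wells held 63.6, 71.4, 101.1 and 108.1 CPM, a level 2.74-fold lower than at 0 h (log2 change -1.45, SE 0.235, adjusted p = 3.661e-05). The parental line showed the same direction at both times, from 219.5 ± 28.4 CPM at 0 h to 131.3 ± 11.7 at 16 h and 118.0 ± 31.2 at 96 h (n = 4 each; log2 changes -0.74 and -0.89, edgeR adjusted p = 0.02592 and 0.006812). The parental call at 16 h was lost without 0 h replicate 1, 3 or 4 or 16 h replicate 1 or 2, with log2 changes between -0.68 and -0.71. LAC, in contrast, already stood at 102.5 ± 39.6 CPM at 0 h and was called at neither time. With the GC and length trend removed, DDIT4 was the only member called in LAC at 96 h, and was then higher.

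The 3 amino acid enzymes did not move as a block. PSAT1 (chromosome 9, 78297125 to 78330093, plus strand) had 604.5, 544.3 and 563.6 CPM in LB1 at 0 h and 321.0, 265.5, 284.0 and 287.5 CPM at 96 h, a level 1.97-fold lower (log2 change -0.98, SE 0.135, adjusted p = 1.565e-06). It also fell at 96 h in the parental line, from 525.4 ± 58.3 to 372.9 ± 25.6 CPM (n = 4 each; log2 change -0.50, edgeR adjusted p = 0.009545), and in LB2, from 552.6 ± 110.5 (n = 4) to 380.8 ± 21.0 CPM (n = 3; log2 change -0.54, edgeR adjusted p = 0.01439). The parental call was lost without 0 h replicate 1 or 2 or 96 h replicate 2, and the LB2 call without 0 h replicate 2 or 4 or 96 h replicate 2 or 3. In LAC it was the member nearest to a rise at 16 h, from 288.8, 461.8, 371.2 and 378.9 to 460.2, 490.6, 563.9 and 498.3 CPM, which missed the threshold in the edgeR fit (log2 change 0.42, SE 0.126, adjusted p = 0.05993). It was called by the DESeq2 Wald test (0.35), by limma voom (0.39) and by edgeR without LAC 0 h replicate 2 (0.55).

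PHGDH (chromosome 1, 119648411 to 119744218, plus strand) acts in the step before PSAT1 and was called at 96 h in LB1 alone among the 4 lines. It went from 366.6, 399.6 and 390.3 CPM to 200.0, 210.5, 251.7 and 258.9 CPM (log2 change -0.74, SE 0.147, adjusted p = 0.0009794). In LB2 the group mean at 96 h was 291.0 ± 39.4 CPM (n = 3) against 264.9 ± 78.5 at 0 h (n = 4), so the 2 serine enzymes were not called alike in that line.

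ASNS behaved unlike the other members. In LB1 its wells held 6.89, 5.31 and 6.54 CPM at 0 h and 5.32, 6.38, 5.89 and 5.48 CPM at 96 h, which overlap (log2 change -0.17, SE 0.238, not called). In the parental line it fell from 13.8, 11.6, 11.1 and 9.91 CPM at 0 h to 4.55, 5.50, 5.87 and 4.56 CPM at 16 h and 3.84, 4.39, 3.92 and 5.70 CPM at 96 h. The parental change was the strongest of the members in that line at both times (log2 changes -1.18 and -1.38, edgeR adjusted p = 0.0004242 and 3.869e-05), and no alternative setting or left-out well removed the call. The parental 0 h group is the highest of the 12 groups for ASNS. As given above, about as many exon bases of ASNS are shared with a neighbour as are its own, and that neighbour had a median of 0.709 CPM.

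At 16 h the parental line had 4 members called lower (9.01% of all genes called, 4.78% lower): DDIT3, ASNS, CHAC1 and DDIT4. CHAC1 had gone to 38.7, 43.3, 44.9 and 38.3 CPM (log2 change -0.60, adjusted p = 0.002717), below all 0 h wells. No member was called in LAC or LB2 at 16 h by edgeR (1.78% and 1.81% of all genes called). At an unadjusted p under 0.05 there were 2 members in LAC and 4 in LB2. The DESeq2 Wald test called 1 higher in LAC (5.46% of all genes called higher) and 1 lower in LB2 (1.94% lower), and limma voom with sample quality weights called 1 higher in LAC (8.51%) and 2 lower in LB2 (3.48%). Without 0 h replicate 2 in LAC, or 0 h replicate 1 in LB2, edgeR called 1. From 16 to 96 h, 8 members fell in LB1 (20.4% of all genes called, 10.9% lower), all except ASNS and DDIT4. Over the same interval 3 fell in LB2 (2.5%, 1.45% lower; ATF4, ATF3 and PSAT1) and 2 in LAC (5.27%, 3.22% lower; ATF4 and CHAC1). None was called in the parental line by edgeR (0.265% of all genes called; 3 at an unadjusted p under 0.05). Against 0 h, ASNS, CHAC1 and DDIT4 were thus called lower in the parental line at 16 and 96 h, and ATF4 and PSAT1 only at 96 h. In LB1 DDIT4 was called at both times, and the other called members only at 96 h. No member passed the edgeR test of the LB1 minus the parental response at 16 h. A difference in timing between the lines was not tested.

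Whether the tagged lines differed from the parental response was tested directly, as the change from 0 h in the tagged line minus that in the parental line. These comparisons share the parental samples, and each uses the same 0 h wells as the comparison of that line with the parental line at 0 h. For LB1 at 96 h no member passed (edgeR, 1.04% of all genes called), although 9 of the 10 estimates were below 0 and their median was -0.52, against 0.03 for all genes. At an unadjusted p under 0.05 there were 6 members, the DESeq2 Wald test called 1 (ASNS, higher; 2.63% of all genes called) and limma voom called 3 (5.25%). Without parental or LB1 96 h replicate 4, edgeR also called ASNS. The estimates with the lowest adjusted p were ASNS at 1.21 (SE 0.325, adjusted p = 0.05056), ATF3 at -0.70 (SE 0.211, adjusted p = 0.08687), PHGDH at -0.65 (SE 0.201, adjusted p = 0.09616) and PSAT1 at -0.49 (SE 0.185, adjusted p = 0.1727). With the GC and length trend removed, 5 members passed (4.03% of all genes called): ATF3, TRIB3, PSAT1 and PHGDH lower and ASNS higher. The larger number of members called in LB1 than in the parental line is therefore not by itself a tested difference. At 16 h no member passed for LB1 (0.0279% of all genes called; 3 at an unadjusted p under 0.05, 0 by DESeq2 and 0 by limma voom, which called 0.155% and 0.163% of all genes) or for LB2 (0.00465%; 1 at an unadjusted p under 0.05, 0 by both other tools, which each called 0.00931%).

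The LAC response differed from the parental one in 1 member at 16 h (edgeR, 0.116% of all genes called, 0.0745% higher) and in 3 at 96 h (7.4%, 3.1% higher), all higher. At 16 h 6 members had an unadjusted p under 0.05. There DESeq2 called 3 higher (134 of 13570 genes) and limma voom 4 (314 of 21484). With the GC and length trend removed, edgeR called 4 higher at 16 h (52 of 21484 genes). Across genes, the 16 h difference had a Spearman's rho of -0.667 with GC content. ASNS differed by 1.72 (SE 0.307, adjusted p = 0.003625) at 16 h and by 1.57 (SE 0.312, adjusted p = 0.002203) at 96 h. At 96 h PSAT1 differed by 0.60 (adjusted p = 0.03101) and DDIT4 by 1.16 (adjusted p = 0.01803). The 3 genes fell at 96 h in the parental line and none was called in LAC, where ASNS was 3.90 ± 0.531 CPM at 0 h and 4.55 ± 1.20 CPM at 96 h (n = 4 each). LAC was already lower than the parental line at 0 h for the same 3 genes (15.8% of all genes called, 7.08% lower): ASNS by a log2 difference of -1.55 (edgeR adjusted p = 2.443e-06), PSAT1 by -0.48 (edgeR adjusted p = 0.005777) and DDIT4 by -1.12 (edgeR adjusted p = 0.000358). Both results use the same 0 h wells, so the difference in response is not separate from the difference at 0 h. At 96 h mean levels in LAC and the parental line were 4.55 and 4.46 CPM for ASNS, 121.1 and 118.0 for DDIT4, and 403.3 and 372.9 for PSAT1. With the GC and length trend removed, 7 members were called lower in LAC at 0 h (8.45% of all genes called lower), and 4 differed upward at 96 h (3.32% of all genes called higher): ASNS (1.55), DDIT4 (1.504), CHAC1 (0.84) and SESN2 (0.55). The PSAT1 difference at 96 h was then no longer called (0.41, adjusted p = 0.05098). That PSAT1 difference was also lost without any 1 of 9 of the 16 wells (parental 0 h replicates 1 and 2 and 96 h replicates 2 and 4, LAC 0 h replicates 1 and 4 and 96 h replicates 1, 2 and 3). PSAT1 at 0 h was not called without parental replicate 2 or LAC replicate 1 (-0.37 and -0.35).

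LB1 at 0 h was lower than the parental line in ASNS only among the members (4.05% of all genes called, 2.43% lower; log2 difference -0.84, adjusted p = 0.02983). That call was lost without parental replicate 1 or 2 and without any of the 3 LB1 wells. LB2 at 0 h was higher in ATF3, 2.12-fold (log2 difference 1.08, SE 0.140, adjusted p = 2.343e-07), and lower in TRIB3 (-0.76, adjusted p = 0.004496) and ATF4 (-0.37, adjusted p = 0.01837), where 8.21% of all genes were called. The ATF4 call was lost without parental replicate 3 or LB2 replicate 3 or 4. ATF3 and ATF4 thus lay on opposite sides of the parental level in the same wells. The LB2 response differed from the parental one at 96 h in ATF3 alone among the members (0.368% of all genes called, 0.0977% lower; -0.83, SE 0.203, adjusted p = 0.04936). This call is at the threshold and was lost when any 1 of 14 of the 15 wells was left out, all but parental 96 h replicate 4. It uses the same 0 h wells as the ATF3 difference at 0 h and is not separate from it. At 96 h the mean of ATF3 was 17.6 CPM in LB2 and 14.8 CPM in the parental line.

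The lines were also compared with each other at 96 h, a comparison added after the data had been seen. The LB1 response was lower than the LAC response for 5 members (1.01% of all genes called, 0.717% lower): DDIT4 by -1.72 (SE 0.322, adjusted p = 0.001992), PSAT1 by -1.08 (SE 0.185, adjusted p = 0.0004866), ATF3 by -0.89 (adjusted p = 0.02015), PHGDH by -0.82 (adjusted p = 0.03051) and CHAC1 by -0.75 (adjusted p = 0.04287). DDIT4 and PSAT1 passed in all 24 alternatives and left-out wells, ATF3 in 19, PHGDH in 14 and CHAC1 in 10. The count fell to 2 without LAC 96 h replicate 2 or LB1 0 h replicate 3. All 10 estimates were below 0. The mean of DDIT4 was 102.5 CPM in LAC and 236.8 in LB1 at 0 h, and 121.1 and 86.1 at 96 h. For PSAT1 the means were 375.2 and 570.8 at 0 h, and 403.3 and 289.5 at 96 h. The differences in response of these genes use the same 0 h wells and are not separate from the differences at 0 h. Across genes, the LB1 minus LAC difference at 96 h had a Spearman's rho of 0.597 with GC content. Once that trend was taken out, 8 members were lower (1.42% of all genes). No member separated the LB1 from the LB2 response (edgeR, 0.121% of all genes called). There, 5 members had an unadjusted p under 0.05, the DESeq2 Wald test called 1 (0.389% of all genes called lower) and limma voom called 4 (1.81%), all lower in LB1. Without LB2 0 h replicate 1 edgeR called 2, PHGDH (-1.11) and DDIT4 (-1.25), and without LB2 96 h replicate 1 it called PHGDH. The nearest were PHGDH at -0.89 (SE 0.209, adjusted p = 0.06708), DDIT4 at -0.93 (SE 0.331, adjusted p = 0.4373), CHAC1 at -0.62 (SE 0.203, adjusted p = 0.346) and SESN2 at -0.63 (SE 0.275, adjusted p = 0.6138).

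**Figure D3:**
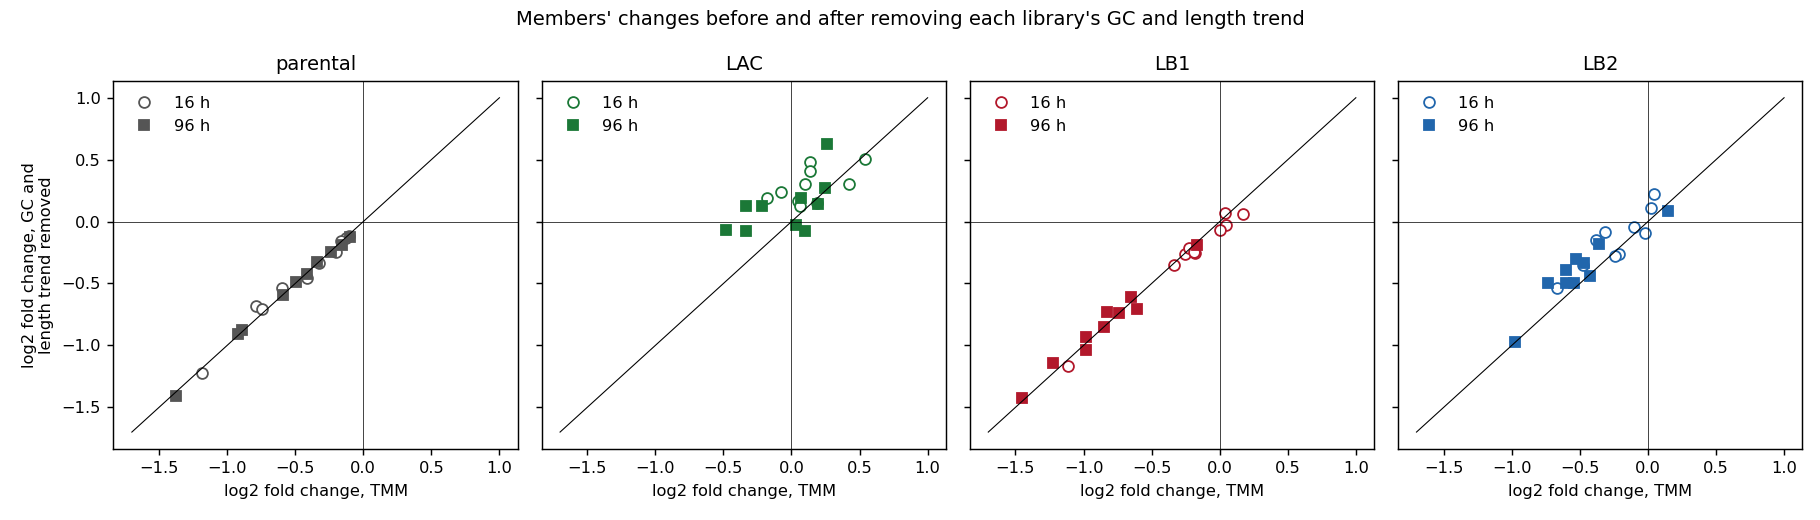
Log2 fold change of each of the 10 genes against 0 h with TMM scaling (x axis) and after each library's trend with GC content and gene length was removed (y axis), at 16 h (open circles) and 96 h (filled squares); the line marks equal values. Parental and LB1 points lie near the line, most LAC points lie above it, and CHAC1 in LAC at 96 h moves from -0.48 to -0.07.

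The plot of changes before and after removal of the GC and length trend shows where the choice matters. Across genes, Spearman's rho between the log2 fold change and GC content was -0.71 in LAC at 16 h and -0.66 at 96 h, -0.48 in LB2 at 16 h, 0.02 in the parental line at 96 h and -0.17 in LB1 at 96 h. The members span 42.3% GC (PSAT1) to 62.6% (CHAC1). In LB1 at 96 h the number of members called lower was 8 with and without the trend (4.53% of all genes called lower without it), and the median change was -0.84 and -0.80. In the parental line at 96 h it was 5 and 6 (6.18% of all genes). In LAC at 96 h the 2 members called lower became 0, with 1 called higher (5.96% of all genes higher). What sets these trends was not tested.

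**Figure D4:**
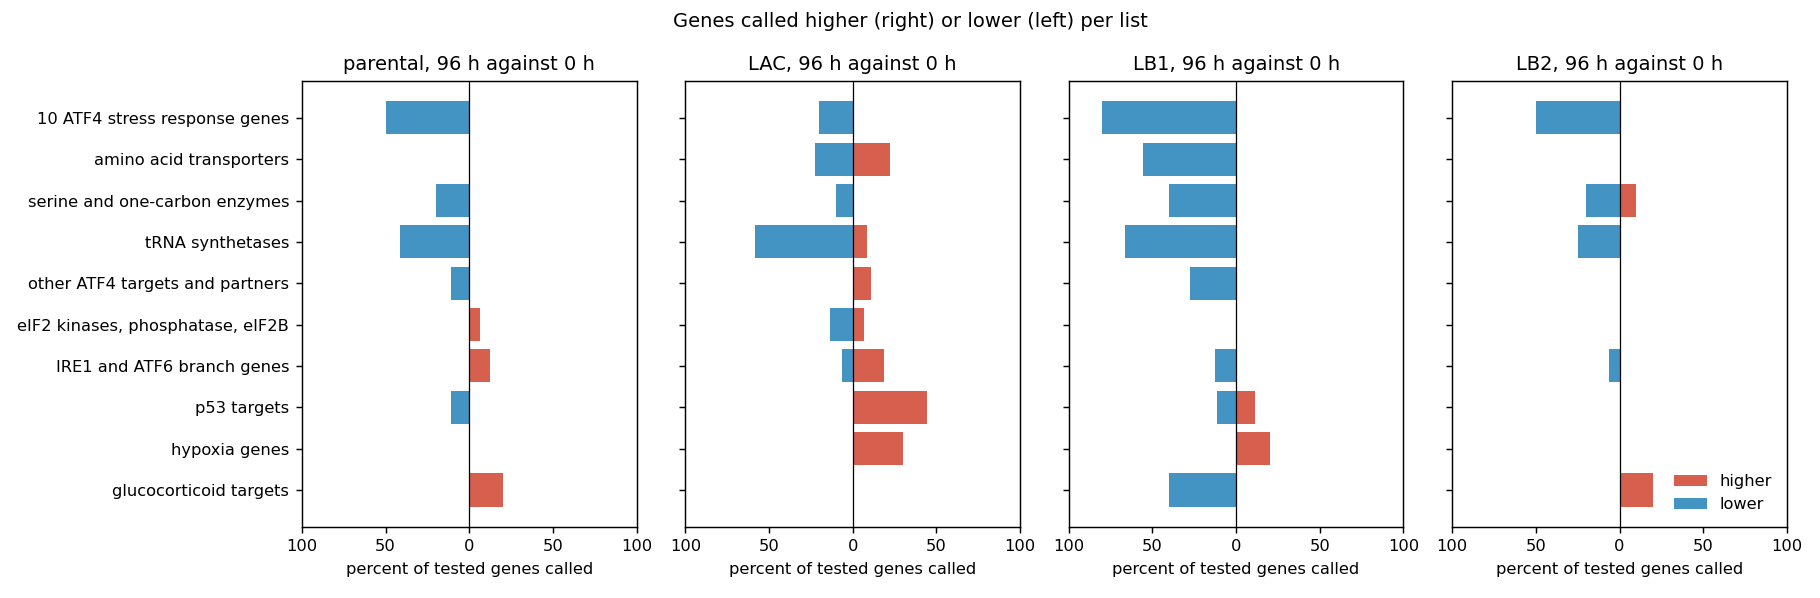
Percent of the tested genes of each list called lower (blue, to the left) or higher (red, to the right) at 96 h against 0 h in each line; both directions of the x axis start at 0. In LB1 the bars for the 10 ATF4 stress response genes, amino acid transporters, serine and one-carbon enzymes and tRNA synthetases all point left, and the eIF2 kinases have no bar.

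Other genes of the ATF4 program were taken from lists of the pathway, which were also chosen with earlier results of these data known. Genes that import amino acids fell in LB1 at 96 h in 5 of 9 cases and rose in none (median log2 change -0.66, against 0.04 for all genes, of which 2.12% were called lower). Once the trend with GC and length was taken out, 7 of the 9 were lower (4.53% of all genes). The 5 called before that removal were SLC7A11, the cystine importer (220.6 ± 11.3 CPM, n = 3, to 91.0 ± 13.4, n = 4; log2 change -1.28, edgeR adjusted p = 4.932e-08), SLC1A5, a glutamine transporter (-1.19), SLC6A9, a glycine transporter (-1.12), SLC7A5, the light chain of the large neutral amino acid transporter (-1.06), and SLC38A2 (-0.66). In the parental line and in LB2 none of the 9 was called at 96 h by edgeR (4 and 3 at an unadjusted p under 0.05). In LAC, SLC7A11 (0.81) and SLC38A2 (0.50) rose while SLC7A5 and SLC1A5 fell. With the GC and length trend removed, 3 were higher and none lower. SLC7A11 and SLC38A2 were also the 2 transporters called lower in LAC than in the parental line at 0 h (7.08% of all genes lower). Their rise in LAC uses the same 0 h wells and is not separate from that difference. Of the transporters, 3 passed the edgeR test of the difference between the LB1 and parental responses, all lower (0.317% of all genes lower): SLC7A5, SLC1A5 (-1.17, adjusted p = 0.01652) and SLC7A11 (-0.86, adjusted p = 0.02566).

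Cytosolic aminoacyl-tRNA synthetases, which load amino acids onto tRNA, fell in LB1 at 96 h in 8 of 12 cases (median log2 change -0.75; 2.12% of all genes lower). MARS1 went from 367.6 ± 2.52 CPM (n = 3) to 186.3 ± 12.2 (n = 4), a log2 change of -0.98 (edgeR adjusted p = 2.648e-07). GARS1 (-0.91), YARS1 (-0.86), SARS1 (-0.85), CARS1 (-0.83), AARS1 (-0.81), TARS1 (-0.68) and EPRS1 (-0.55) also fell. At 96 h 5 of the 12 also fell in the parental line (3.84% of all genes lower), 3 in LB2 (1.6%) and 7 in LAC (8.64%), where LARS1 rose. YARS1 alone of the 12 differed between the LB1 and parental responses (-0.65, edgeR adjusted p = 0.02566; 0.317% of all genes lower). Reads of MARS1 and DDIT3 may be shared, as described above.

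Serine, glycine and one-carbon enzymes fell in LB1 at 96 h in 4 of 10 cases (2.12% of all genes lower), among them PSPH, which completes serine synthesis after PHGDH and PSAT1 (145.8 ± 10.0 CPM, n = 3, to 81.9 ± 5.06, n = 4; log2 change -0.83, edgeR adjusted p = 7e-06), SHMT2 (-0.74) and MTHFD2 (-0.55). PSPH and MTHFD2 also fell in the parental line and in LB2. All 3 enzymes of serine synthesis from glycolysis were therefore lower in LB1 at 96 h. Among other ATF4 targets and partners, 5 of 18 fell in LB1 at 96 h (2.12% of all genes lower): ADM2, a peptide hormone (-1.48, edgeR adjusted p = 0.008177), PCK2, the mitochondrial PEP carboxykinase (-1.23), GDF15, a secreted stress cytokine (-0.82), GPT2, an alanine aminotransferase (-0.71), and CEBPG, a partner of ATF4 (-0.41). ADM2 is expressed at 2.50 ± 2.16 CPM at 0 h (n = 3), with a spread nearly as large as the mean.

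Genes upstream of ATF4 and of the neighbouring stress branches were counted in the same way. Of 15 genes for eIF2alpha kinases, phosphatase subunits and eIF2B, none was called in LB1 at 96 h against 0 h by edgeR, and 0 had an unadjusted p under 0.05 (median log2 change 0.00). At 16 h PPP1R15A and EIF2AK2 were called higher in LB1 (0.987% of all genes higher). EIF2AK2 was also called higher in the parental line at 16 and 96 h. From 16 to 96 h GCN1, EIF2B4, EIF2AK2 and EIF2AK4 fell in LB1 and OMA1 rose (10.9% of all genes lower, 9.53% higher). PPP1R15A (GADD34), which directs dephosphorylation of eIF2alpha, was at 43.5 ± 1.80 CPM at 0 h (n = 3) and 58.1 ± 8.83 at 96 h (n = 4). Of 16 genes of the IRE1 and ATF6 branches, which answer unfolded protein in the endoplasmic reticulum, 2 fell in LB1 at 96 h (2.12% of all genes lower): PDIA4 (-0.67, edgeR adjusted p = 0.009332) and HSP90B1 (-0.65, edgeR adjusted p = 0.005878). Once the trend with GC and length was taken out, 6 of the 16 were lower (4.53% of all genes), and 1 of the 15 was higher (2.12% of all genes). HSPA5 (BiP), the main chaperone of that compartment, was at 849.2 ± 55.8 CPM at 0 h (n = 3) and 668.7 ± 102.6 at 96 h (n = 4). In the parental line CRELD2 and HSPA5 rose instead, and 4 of the 16 were lower in the LB1 than in the parental response (0.317% of all genes lower): HYOU1, PDIA4, HSP90B1 and HSPA5.

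Across the 12 group means, members did not all vary together. The closest pairs by Pearson's r of log2 CPM were CHAC1 with SESN2 (0.836), CHAC1 with PSAT1 (0.819) and ATF4 with TRIB3 (0.803), and the most opposed were TRIB3 with DDIT4 (-0.262) and ATF3 with TRIB3 (-0.255). ATF4 and ATF3 had an r of -0.063. These correlations are descriptions over 12 groups that share lines and differ in depth. Among 10858 named genes with a mean of at least 5 CPM, the gene most like PSAT1 was MTHFD2 (r = 0.941, 12 groups), a mitochondrial one-carbon enzyme that is on the list above. EIF4EBP1, which encodes an inhibitor of translation initiation, was the third for CHAC1 (0.939), after TGFB1I1 (0.946) and CAV1 (0.939). For ATF4 it was PRDX6 (0.951), for TRIB3 SEMA4C (0.981), for SESN2 ADAM9 (0.967), for ATF3 ESAM (0.957), for ASNS HERC4 (0.920), for DDIT4 CX3CL1 (0.917) and for DDIT3 NAPG (0.782).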

How the data were processed

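The authors deposited a single table of raw gene counts covering 46 RNA-seq libraries (ribosomal RNA depleted, stranded kit, paired-end, per the labels' protocols). Per the file headers, counts were made with featureCounts 1.6.4 in the nf-core/rnaseq 1.4.2 environment. The submitters' processing notes also list STAR 2.7.10a, SAMtools 1.10, deepTools 3.4.5, DESeq2 1.40.2 and GRCh38. The strand setting, the handling of multiply mapped reads and the annotation release are not given in the sources used here. All 46 columns were matched to libraries by name. A further gene, broken over 3 lines, was left out. Of 62756 genes, 67.4% had a symbol and 92.8% a GC value (GENCODE 29). Gene positions are those of the table.

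Counts were fitted once for all 46 libraries with edgeR 4.0.16 in R 4.3.3 (quasi-likelihood test, 1 coefficient per group, TMM, filterByExpr). Tests are two-sided and adjusted by the Benjamini-Hochberg method over 21484 genes, with 0.05 as the threshold for a call. CPM are given as mean ± SD over wells. Other settings tried were no low-count filter, scaling by RLE or by library size only, DESeq2 1.42.0, limma 3.58.1 voom with quality weights, the compared groups alone, a replicate block, removal of libraries under 5000000 counts, removal of each library's GC and length trend (spline offsets), and leaving out each well. The fit was tested on simulated data. Whether replicate numbers pair wells is not given in the labels; deviations from the group means correlated by over 0.1 in all 4 same-numbered pairs of LAC at 0 and 16 h (0.124 to 0.691), and in no other comparison with 0 h did every pair.

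The members and gene lists were chosen with earlier results of these data known. The rule for naming genes was to name the 10 members in every comparison, the listed pathway genes that pass the test, and for each member the genes most correlated with it over 12 group means. PPP1R15A was named after its values were seen. Some genes that the rule would name are not reported here. A count of 0 allows up to 3 counts, and intervals of counting error were not needed for the members, all of which had reads in every library.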

Additional observations from a re-analysis of the deposited data

Results flagged for a closer look

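Of 100 groups of 4 wells checked, 5 had a well whose gap to the nearest other well took more than 0.829 of the group's range, where chance gives about 1 in 20. These were ATF4 in LB1 at 96 h (replicate 4, 361.6 CPM), ATF3 in LB2 at 16 h (replicate 3, 39.15 CPM), TRIB3 in LAC at 0 h (replicate 1, 407.2 CPM), TRIB3 in LB2 at 0 h (replicate 1, 227.3 CPM) and PHGDH in LAC at 96 h (replicate 1, 302.0 CPM). Of these wells, LAC 0 h replicate 1, LB2 0 h replicate 1 and LB2 16 h replicate 3 are among the 6 libraries under 5000000 counts.

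Of 80 differences between the responses of 2 lines, 10 passed the edgeR test of the difference. Against the parental response, ASNS was higher in LAC by 1.72 (log2) at 16 h and by 1.57 at 96 h, PSAT1 by 0.597 and DDIT4 by 1.155 at 96 h, and ATF3 in LB2 differed by -0.825 at 96 h. These genes already differed from the parental line at 0 h in the opposite direction, in the same 0 h wells. The LB1 response minus the LAC response at 96 h was -0.886 for ATF3, -0.749 for CHAC1, -1.082 for PSAT1, -0.815 for PHGDH and -1.715 for DDIT4. Mean levels of PSAT1 and DDIT4 were already lower in LAC than in LB1 at 0 h, in the same 0 h wells.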

How the results depend on the processing

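The 8 members called lower in LB1 at 96 h were each kept in all 16 alternatives and left-out wells against 0 h; against 16 h the count was also 8, with DDIT3 in place of DDIT4. Of 1027 alternative fits of 54 member log2 fold changes, 869 kept direction and side of the threshold, 126 were no longer called, 32 became called and 0 changed sign. The 54 are only a part of all member fold changes, and most of them were called in the main fit. A change of sign was therefore unlikely from the start, and its absence does not extend to the other fold changes. The cause of the moves below was not tested. Scaling by library size only shifted the median of all genes by -0.116 in the parental line and -0.105 in LB1 at 16 h, 0.121 in LAC at 96 h, 0.213, 0.175 and 0.155 for the LAC, LB1 and LB2 responses minus the parental response at 96 h, and -0.181 for LAC against parental at 0 h; RLE shifted LB1 minus parental at 96 h by 0.102. With library size only, the share of all calls that were higher moved from 33.14% to 47.52% in LB1, 50.69% to 30.9% in the parental line, 43.8% to 66.84% in LAC and 54.99% to 72.29% in LB2 at 96 h, and from 69.64% to 90.68% for LB1 minus parental at 96 h (40.53% without the GC trend). Depth limits DDIT3 and ASNS most.

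Counts of members called moved as follows, and the calls over all genes moved with the setting too: with the compared groups alone they were 3266 of 14521 genes for parental 16 h and 54 of 16889 for LB2 96 h, and with limma voom 3345 of 21484 for parental 96 h. Without the low-count filter: parental 16 h 2, parental 96 h 3, LAC 96 h 0, LB2 96 h 2, LB2 minus parental at 96 h 0, LB1 against parental at 0 h 0, LB1 minus LAC 3. With the compared groups alone: parental 16 h 7, LAC 96 h 1, LB2 96 h 1, LB1 minus parental at 96 h 3, LB2 minus parental at 96 h 0, LB1 against parental at 0 h 2, LB2 against parental at 0 h 1 (higher, where 2 of 3 had been lower), LB1 minus LAC 2. With RLE scaling: LB1 minus parental at 96 h 1, LB2 minus parental at 96 h 0. With library size only: LAC 96 h 1, LAC minus parental 2 at 16 h and 5 at 96 h, LB1 minus parental at 96 h 1, LB2 minus parental at 96 h 0, LAC against parental at 0 h 7, LB1 against parental at 0 h 2, LB1 minus LB2 1. With DESeq2: LAC 16 h 1, LB2 16 h 1, LAC minus parental 3 at 16 h and 5 at 96 h, LB1 minus parental at 96 h 1, LAC and LB1 against parental at 0 h 5 and 2, LB1 minus LB2 1. With limma voom: parental 96 h 8, LAC 16 h 1, LB2 16 h 2, LAC minus parental 4 at 16 h and 5 at 96 h, LB1 minus parental at 96 h 3, LB2 minus parental at 96 h 3 (2 higher, 1 lower), LAC and LB1 against parental at 0 h 6 and 3, LB1 minus LB2 4. Without libraries under 5000000 counts: LAC minus parental at 16 h 2, LB1 and LB2 minus parental at 96 h 1 and 0, LB1 against parental at 0 h 3, LB1 minus LB2 2. With the GC and length trend removed: LAC 16 h 2, LAC 96 h 1 (higher, where 2 had been lower), LAC minus parental at 16 h 4, LB1 minus parental at 96 h 5, LAC and LB1 against parental at 0 h 7 and 2, LB1 minus LAC 8, LB1 minus LB2 3. Against 16 h in place of 0 h, added after the data were seen: parental 96 h 0, LB2 96 h 3.

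Leaving out each well in turn gave 2 to 4 members called for parental 16 h, 3 to 4 for parental 96 h, 0 to 1 for LAC 16 h, 1 to 2 for LAC 96 h, 0 to 1 for LB1 16 h, 8 to 8 for LB1 96 h, 0 to 1 for LB2 16 h and 1 to 5 for LB2 96 h. It gave 1 to 1 and 2 to 3 for LAC minus parental at 16 and 96 h, 0 to 0 and 0 to 1 for LB1 minus parental, and 0 to 0 and 0 to 1 for LB2 minus parental. For LAC, LB1 and LB2 against parental at 0 h it gave 2 to 4, 0 to 2 and 2 to 4, for LB1 minus LAC 2 to 6 and for LB1 minus LB2 0 to 2. A fit with the replicate block left 0 members called in LAC at 16 h. The block gives each replicate number 1 effect common to all lines. It does not model pairs within a line, so it is not a paired test of LAC. Of all 29 pairs of same-numbered wells tested, 13 had correlated deviations over 0.1 (range -0.573 to 0.691). The block called 2 members for LB1 against parental at 0 h in place of 1, and no other count of members moved by over 1.5 times.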

Other observations

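Stress genes outside the ATF4 program were counted in LB1 at 96 h, where 1.05% of all tested genes were called higher and 2.12% lower. Of 10 hypoxia genes, 2 rose, NDRG1 and PDK1, a kinase that holds back pyruvate oxidation, and none fell. Of 9 p53 targets, BTG2 rose and CDKN1A, the cell cycle inhibitor p21, fell. CDKN1A was also called lower in the parental line at 16 and 96 h. No p53 target differed between the LB1 and parental responses at 96 h by edgeR (1 at an unadjusted p under 0.05). Of 5 glucocorticoid targets, KLF9 and ERRFI1 fell. NDRG1 was also higher in the LB1 than in the parental response. In LAC at 96 h, 4 p53 targets (TP53INP1, BTG2, FAS and ZMAT3) and 3 hypoxia genes (PDK1, ANGPTL4 and EGLN3) rose, where 6.74% of all tested genes rose and 8.64% fell; the p53 count was 1 and the hypoxia count 5 with the GC and length trend removed.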
